A study of Mus musculus with 6 samples.

Results

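The genes described here are 54 markers of macrophages and other myeloid cells, of lymphocytes and lymphoid tissue, and of inflammatory signalling, measured in whole pancreas of mice at postnatal day 7. They were chosen by symbol, and all 54 were among the 23337 symbols counted in each library. Of them 25 belong to macrophages, 13 to lymphocytes and lymphoid tissue, and 16 to neutrophils, chemokines, cytokines and their signalling. The mutant group had 3 libraries from NMRI mice that carried Ptf1a cre/+ together with the transgene CAG-loxP-STOP-loxP-Prox1-LacZ. In these mice Cre, made from the Ptf1a locus, removes a stop signal, and the CAG promoter then drives Prox1 and LacZ. The control group had 3 libraries from NMRI mice of the genotype Ptf1a cre/+, so both groups carried Cre at 1 Ptf1a allele and neither was free of it. Ptf1a is known to be active in pancreas progenitors and acinar cells, and which cells had recombined was not measured here. The submitters call the controls pools in one place and individual organs in another, and pooling cannot be told apart from genotype. Litters are not named, and p-values cover only the spread between these samples, which may be technical.

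Resident macrophages settle in the pancreas before birth and clear dying cells and debris. They depend on the receptor Csf1r and on the transcription factor encoded by Sfpi1, and they are a main source of the complement protein C1q. Lymph nodes lie against the pancreas in the surrounding fat, and their high endothelial venules, which make Glycam1, admit T and B cells from blood. An inflamed pancreas, in contrast, is known for chemokines such as Ccl2, Cxcl1 and Cxcl2, for neutrophils that carry S100a8 and S100a9, and for NF-kB and Stat3 signalling in the tissue. Lymphocyte markers in whole pancreas can therefore come from attached lymphoid tissue as well as from cells within the organ. In bulk RNA, more cells of a type and more RNA per cell cannot be told apart.

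Prox1, the gene of the transgene, was at 29.3 ± 3.25 CPM in mutants and at 9.27 ± 1.5 CPM in controls (CPM, read counts relative to the TMM-scaled library size; SD, n = 3 each; edgeR adjusted p = 0.000239). Total counts lay between 7729161 and 9957737 in mutants and between 7304727 and 10773223 in controls, so 1 count was worth between 0.0952 and 0.150 CPM. As a check of the labelled tissue, 6 acinar genes summed to between 220408 and 265713 CPM in mutants and between 238362 and 271520 CPM in controls. Mutant 2 had the lowest of these sums. Control 1 was the one library with Xist in number (7110 counts, against at most 4 in each other library) and with 0 Y-linked counts. The other libraries had 1132 to 1463 Y-linked counts. By these counts control 1 was female and the others male, so sex was not balanced between the groups. Its part in the differences was not tested.

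Macrophage genes were mostly somewhat higher in mutants, lymphoid genes were set by single libraries, and the acute chemokine and cytokine genes were near 0 in both groups. Of the 54 genes 41 had enough counts to be tested, and edgeR called 2 higher and 1 lower at an adjusted p under 0.05, all 3 of them macrophage genes. Over all 13017 genes tested 2.06% were called, 0.545% higher and 1.51% lower. The median log2 fold change of mutants over controls was 0.53 over the 25 macrophage genes, 0.72 over the 8 lymphoid genes tested and 0.11 over the 8 inflammation genes tested, against 0.00 over all genes tested. Without mutant 2 these medians were 0.22, -1.58 and -0.09. The lymphoid and inflammation medians thus changed sign with 1 library, and the macrophage median was smaller without it. Of the 41 genes tested 14 had an unadjusted p under 0.05 by edgeR, where 12.8% of all genes tested did, and these were 11 of 25 macrophage genes, 3 of 8 inflammation genes and 0 of 8 lymphoid genes.

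**Figure D1:**
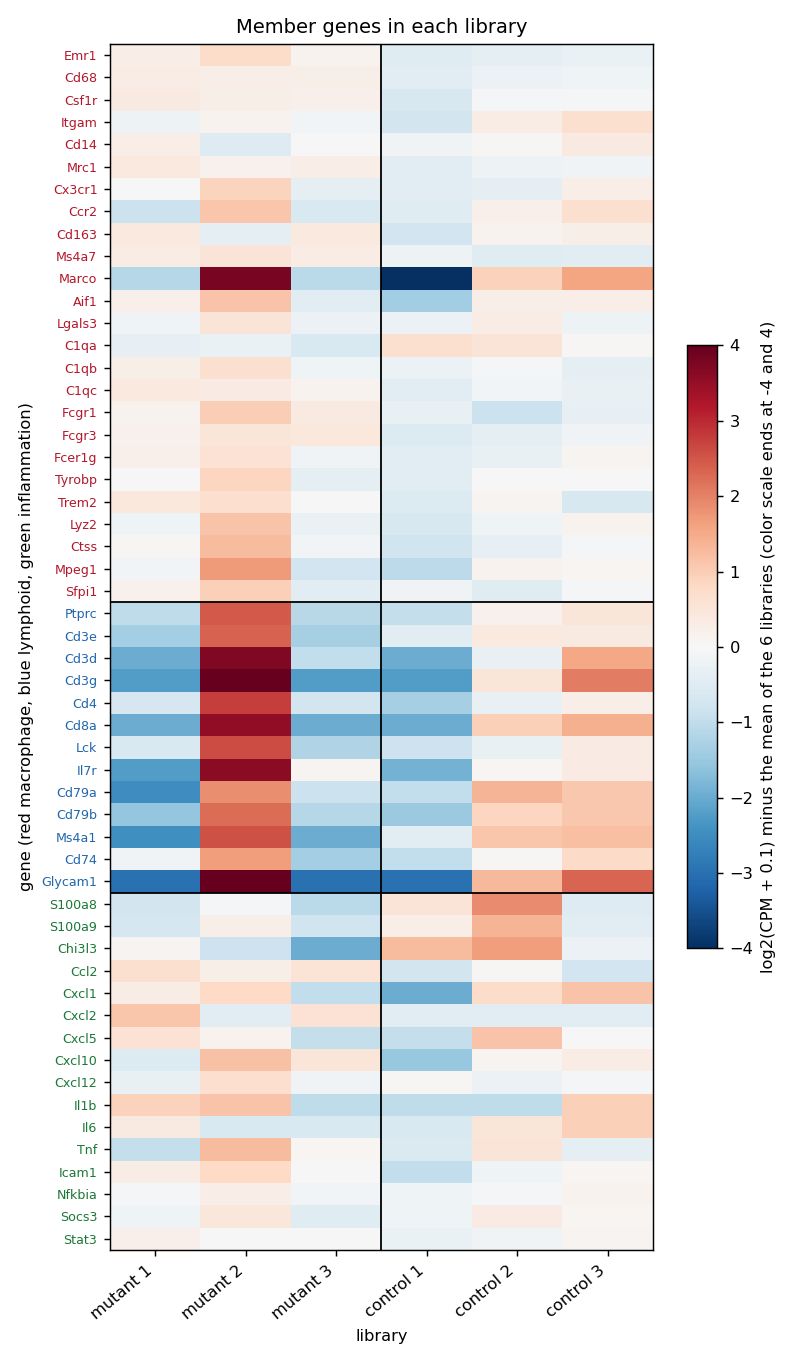
Each row is 1 of the 54 genes and each column 1 library, mutants on the left; color gives log2(CPM + 0.1) minus the mean of the 6 libraries. The lymphoid rows and Marco are red in mutant 2, mostly paler red in control 3, mixed in control 2 and mostly blue in mutants 1 and 3 and control 1, whereas most macrophage rows differ little.

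Mrc1, the mannose receptor CD206 of resident macrophages, and C1qc, a chain of complement C1q, rose in mutants. Mrc1 was at 89.7, 77.5 and 82.4 CPM in mutants, against 50.1, 60.4 and 62.2 CPM in controls. Every mutant lay above every control, the log2 fold change was 0.53 ± 0.11 (SE) and the edgeR adjusted p was 0.0419. The call held without mutant 2 but was lost without control 1, 2 or 3 or mutant 1 or 3, with edgeR adjusted p between 0.0815 and 0.187. C1qc was at 31.2, 29.9 and 26.4 CPM in mutants, against 17.3, 21.9 and 19.1 CPM in controls. These groups did not overlap either (log2 fold change 0.58 ± 0.12, edgeR adjusted p = 0.0419). Leaving out any 1 of the 6 libraries ended the call of C1qc (edgeR adjusted p from 0.0670 to 0.187), and its log2 fold change then lay between 0.51 and 0.67.

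Of the other chains of C1q, the recognition molecule that starts the classical complement pathway, C1qa went the opposite way and C1qb had a positive log2 fold change like C1qc without passing the test. C1qa was at 35.1, 36.7 and 28.5 CPM in mutants, against 68.3, 62.8 and 45.2 CPM in controls. It fell by 0.81 ± 0.16 on the log2 scale (SE, edgeR adjusted p = 0.0313), with every mutant below every control. C1qb was at 21.0, 27.6 and 15.7 CPM in mutants, against 15.2, 16.8 and 13.4 CPM in controls. Mutant 3 lay below control 2, and the gene did not pass (log2 fold change 0.50 ± 0.20, edgeR adjusted p = 0.310). The ratio of C1qa to C1qc was 1.1, 1.22 and 1.08 in mutants, against 3.95, 2.87 and 2.36 in controls. That ratio does not depend on scaling between libraries, and its gap between the groups follows from the opposite orders of the 2 genes. The ratio of C1qb to C1qc was 0.674, 0.922 and 0.595 in mutants, against 0.878, 0.768 and 0.698 in controls, and there the groups overlapped. The call of C1qa was lost without control 1 (edgeR adjusted p = 0.0995), control 2 (0.154), mutant 1 (0.104) or mutant 3 (0.134), and when libraries were scaled by their totals only (0.0797).

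The 3 chain genes lie side by side on the minus strand of chromosome 4 in GRCm38. In GENCODE M21 C1qb spans 136880129 to 136886187, C1qc spans 136889804 to 136893065 and C1qa spans 136895917 to 136898803. No exon of another gene overlaps theirs, and 0% of their transcripts' 50-base stretches occur in another gene. Per length, as CPM per kilobase of annotated exon, C1qa was at 32.1 in mutants and 56.5 in controls, C1qb at 19.7 in mutants and 13.9 in controls, and C1qc at 15.1 in mutants and 10.1 in controls. C1qa was the highest of the 3 per length in both groups, although the protein holds the chains in equal number. The annotation behind the deposited counts is not given in the sources used here, so the lengths it used may differ.

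**Figure D2:**
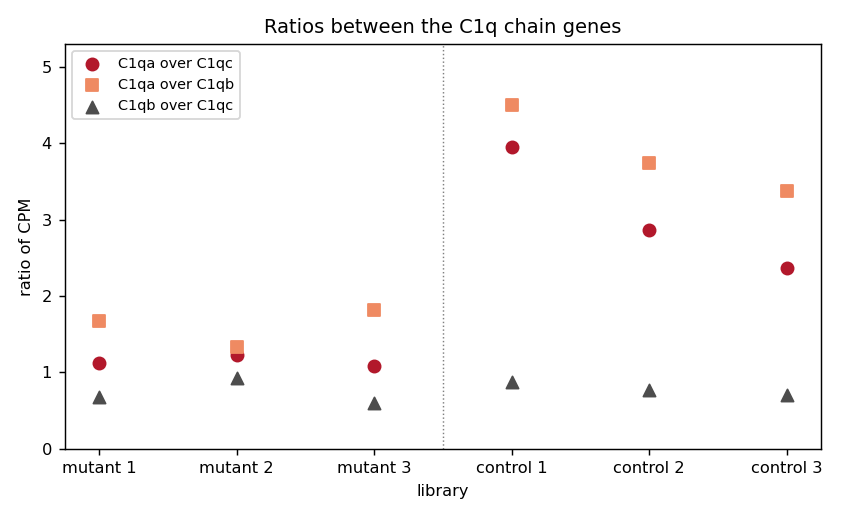
Ratios of CPM between the C1q chain genes (vertical axis) in each library (horizontal axis), mutants left of controls. C1qa over C1qc lies between 1.08 and 1.22 in mutants and between 2.36 and 3.95 in controls, whereas C1qb over C1qc overlaps between the groups.

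Upstream sequence of the called genes is shown because macrophage genes are known to be switched on by the Sfpi1 product, which binds sites with the core GAGGAA. RefSeq upstream sequence on GRCm38.p6 was at hand for 42 of the 54 genes, and C1qa was not among them. The letters GAGGAA were searched on both strands in the 250 bases before each start, and no other motif was searched. Capitals mark a match, written TTCCTC where it lies on the other strand, and bases inside an annotated exon are left out. Mrc1 (chr2:14229164-14229391, plus strand) held 3 matches. C1qc (chr4:136893066-136893164, minus strand) and C1qb (chr4:136886201-136886450, minus strand) held 1 each. Marco (chr1:120505025-120505274, minus strand), a macrophage gene with another pattern across libraries, held 1.
Mrc1: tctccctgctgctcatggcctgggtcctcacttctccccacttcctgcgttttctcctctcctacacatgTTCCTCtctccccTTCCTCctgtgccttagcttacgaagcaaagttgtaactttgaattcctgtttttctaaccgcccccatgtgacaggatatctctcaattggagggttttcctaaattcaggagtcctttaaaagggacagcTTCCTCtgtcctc
C1qc: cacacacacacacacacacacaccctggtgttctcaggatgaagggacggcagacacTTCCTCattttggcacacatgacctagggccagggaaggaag
C1qb: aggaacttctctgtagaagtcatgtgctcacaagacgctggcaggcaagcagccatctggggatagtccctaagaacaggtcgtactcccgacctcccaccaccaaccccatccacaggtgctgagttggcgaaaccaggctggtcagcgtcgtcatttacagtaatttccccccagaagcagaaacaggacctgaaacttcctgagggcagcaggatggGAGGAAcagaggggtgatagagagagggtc
Marco: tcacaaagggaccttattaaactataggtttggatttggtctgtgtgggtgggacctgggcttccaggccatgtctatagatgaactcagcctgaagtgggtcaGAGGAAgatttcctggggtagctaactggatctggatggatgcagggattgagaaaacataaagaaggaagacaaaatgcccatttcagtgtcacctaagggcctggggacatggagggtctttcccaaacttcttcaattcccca

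The motif stood in a window of 11 of 19 macrophage genes, 6 of 9 lymphoid genes and 2 of 14 inflammation genes. These counts include matches inside annotated exons, as in Fcgr3 and Aif1, which the printed sequences leave out. It also stood in 23.3% of all 32851 upstream windows of the same length. That share is per window and covers all chromosomes, whereas the counts above are per gene and leave out chromosome 18. Ms4a7, Fcgr3, Ptprc and Lck had 2 windows. These are matches of letters and no measurement of binding.

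Among the other macrophage identity genes, several lay above controls in every mutant without passing the test. Csf1r, the receptor for the growth factors on which macrophages live, was at 70.4, 63.4 and 61.9 CPM in mutants, against 34.4, 51.6 and 52.3 CPM in controls. Emr1, which encodes the surface protein F4/80, was at 13.2, 18.1 and 12.2 CPM in mutants, against 7.82, 8.29 and 9.03 CPM in controls. Cd68, a glycoprotein of macrophage lysosomes, was at 9.62, 9.40 and 9.18 CPM in mutants, against 5.71, 6.63 and 6.82 CPM in controls. In all 3 genes the groups did not overlap. Their log2 fold changes were 0.49 ± 0.15 for Csf1r, 0.78 ± 0.17 for Emr1 and 0.55 ± 0.15 for Cd68, with edgeR adjusted p of 0.171, 0.0569 and 0.123. Emr1 passed with library totals alone (edgeR adjusted p = 0.0380), with no filter on low counts (0.0354) and with a robust dispersion (0.0414). Csf1r shares 15.1% of its exon bases with Hmgxb3 on the other strand, and the strand setting of the counting is not given.

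Of the Fc receptor genes, whose products bind antibody on phagocytes, Fcgr3 and Fcgr1 had the same order, whereas the groups overlapped in the receptor subunit gene Fcer1g and in Fcgr2b, the inhibitory receptor, and Fcgr4, a further receptor, both outside the 54. Fcgr3 was at 8.09, 10.1 and 9.68 CPM in mutants, against 4.81, 5.41 and 6.44 CPM in controls (log2 fold change 0.72 ± 0.18, edgeR adjusted p = 0.0819). It passed with library totals alone (edgeR adjusted p = 0.0426). Fcgr1, another such receptor, was at 1.90, 3.48 and 2.20 CPM in mutants, against 1.35, 0.884 and 1.35 CPM in controls, and Ms4a7 had means of 4.25 CPM in mutants and 2.53 CPM in controls. Neither gene passed the test, although their mutants lay above all controls.

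In all, 8 of the 25 macrophage genes had every mutant above every control and 1 had every mutant below, where 9.13% and 9.86% of all genes tested had these orders. Log2 fold changes were positive in 21 of the 25, in 22 with library totals alone, and in 16 without mutant 2. Control 1, the library with Xist, was the lowest control in 19 of the 25, against 38.1% of all genes tested, and 20 of the 25 were positive without it.

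The remaining macrophage genes did not separate the groups. Cd163, a scavenger receptor, was at 17.3, 9.98 and 17.1 CPM in mutants, against 7.67, 14.6 and 15.4 CPM in controls. Cd14, a co-receptor for bacterial lipopolysaccharide, had means of 9.54 CPM in mutants and 10.7 CPM in controls. Itgam, the integrin chain CD11b of macrophages and neutrophils, had means of 6.61 CPM in mutants and 7.77 CPM in controls. Its log2 fold change of -0.27 was 1 of 4 negative values among the 25 genes, and 68.7% of its exon bases lie within the overlapping gene Gm49368, so its count is uncertain. Fcer1g and Tyrobp, adaptors that carry signals of Fc and other myeloid receptors, had log2 fold changes of 0.41 and 0.36, and Trem2, a receptor that signals through Tyrobp, had 0.72. The lectin Lgals3 had 0.10, the cytoskeletal protein gene Aif1 0.53, and Sfpi1 itself 0.56.

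**Figure D3:**
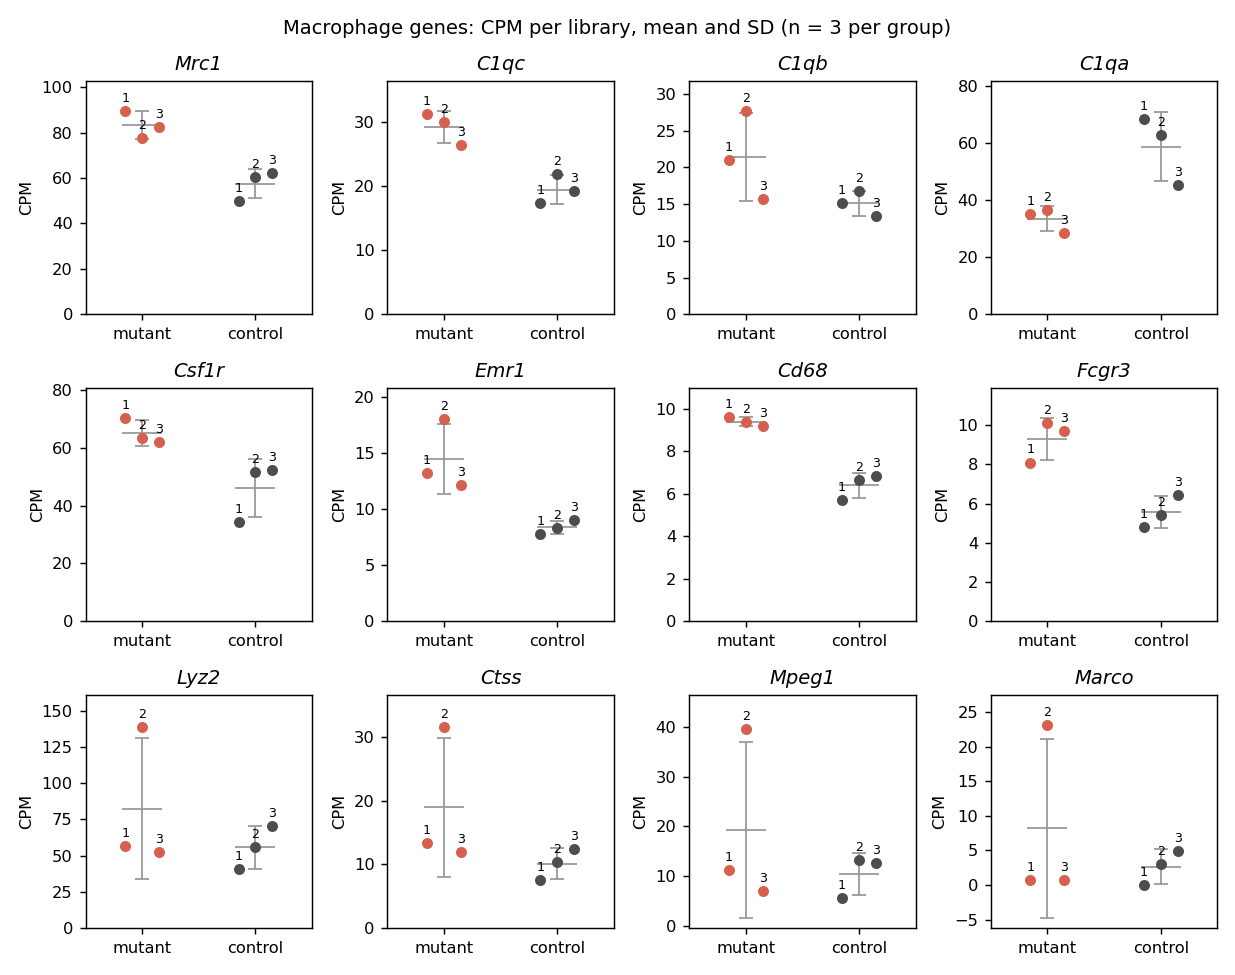
CPM of 12 macrophage genes (vertical axes) in mutants and controls (horizontal axes); points are libraries, numbered by replicate, with mean and SD in grey (n = 3 per group). Mrc1, C1qc, Csf1r, Emr1, Cd68 and Fcgr3 lie above controls in all mutants and C1qa below, whereas Lyz2, Ctss, Mpeg1 and Marco are high in mutant 2.

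A second set of myeloid genes was high in 1 mutant. Lyz2, which encodes the lysozyme of macrophages and neutrophils, was at 56.4, 139 and 52.3 CPM in mutants, against 40.4, 55.8 and 70.6 CPM in controls. Mpeg1, a pore-forming protein of phagocytes, was at 11.2, 39.6 and 6.99 CPM in mutants, against 5.71, 13.3 and 12.6 CPM in controls. Ctss, a lysosomal protease of antigen-presenting cells, was at 13.4, 31.6 and 12.0 CPM in mutants, against 7.52, 10.4 and 12.4 CPM in controls. Mutant 2 stood apart in each of these genes, and mutants 1 and 3 lay within the range of the controls or close to it. Marco, a scavenger receptor of marginal zone and lymph node sinus macrophages, was at 0.666, 23.2 and 0.699 CPM in mutants, against 0, 3.09 and 4.90 CPM in controls. Mutant 2 held 33.2 times the level of the higher of the other mutants for Marco. Ccr2, the receptor by which monocytes follow Ccl2, was at 2.09, 8.35 and 2.5 CPM in mutants, against 2.71, 4.42 and 6.05 CPM in controls, and Cx3cr1, the fractalkine receptor, was at 5.24, 9.75 and 4.09 CPM in mutants, against 3.76, 4.09 and 6.34 CPM in controls. None of these 6 genes was called, with edgeR adjusted p from 0.321 for Ctss to 0.972 for Ccr2.

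Mutant 2 lay at least 1.5 times above both other mutants in 11 of the 25 macrophage genes, where 4.62% of all genes tested did so. This limit was set after the values were seen. The 11 genes were Cx3cr1, Ccr2, Marco, Aif1, Lgals3, Fcgr1, Tyrobp, Lyz2, Ctss, Mpeg1 and Sfpi1. Spread of this kind within the mutants itself works against a call, so the calls are not compared between these genes and the other 14.

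Lymphocyte genes were present in number in 3 libraries, namely mutant 2 and controls 2 and 3. The 7 T cell genes summed to 2.95, 61.3 and 3.29 CPM in mutants, against 2.56, 6.63 and 11.1 CPM in controls. The 3 B cell genes summed to 0.857, 22.2 and 1.60 CPM in mutants, against 2.11, 9.39 and 9.80 CPM in controls. All 13 lymphoid genes were highest in mutant 2, where 21.4% of all genes tested had their highest value, and in all 13 control 1 was the lowest control. The groups overlapped in every lymphoid gene, and edgeR called none of the 8 that were tested.

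Among T cell genes, those of the CD3 complex, through which the T cell receptor signals, were at or near 0 in 3 of the 6 libraries. Cd3e had 2, 32 and 2 counts in mutants, against 3, 8 and 9 counts in controls. Cd3g had 0, 71 and 0 counts in mutants, against 0, 5 and 19 counts in controls. Cd3d had 0, 43 and 1 counts in mutants, against 0, 2 and 11 counts in controls. Cd8a, the co-receptor of cytotoxic T cells, had 0, 39 and 0 counts in mutants, against 0, 6 and 10 counts in controls. A count of 0 allows up to 3 counts, or 0.286 CPM in mutant 1, 0.299 CPM in mutant 3 and 0.451 CPM in control 1. Cd4, the co-receptor of helper T cells that some macrophages also carry, was at 1.24, 14.6 and 1.20 CPM in mutants, against 0.752, 1.66 and 2.5 CPM in controls. Lck, the kinase bound to these co-receptors, was at 1.43, 14.0 and 0.898 CPM in mutants, against 1.20, 1.77 and 2.79 CPM in controls. Il7r, the receptor for the survival factor of naive T cells, had 1, 96 and 9 counts in mutants, against 1, 8 and 11 counts in controls. Every T cell gene was at least 9.83 times as high in mutant 2 as in either other mutant, wherever these were above 0.

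The B cell genes followed the same libraries. Ms4a1, which encodes the surface protein CD20, was at 0.190, 9.17 and 0.299 CPM in mutants, against 1.05, 3.31 and 3.56 CPM in controls. Cd79a, a signalling chain of the B cell receptor, was at 0.0952, 3.83 and 0.499 CPM in mutants, against 0.451, 2.65 and 2.21 CPM in controls. Cd79b, its partner chain, was at 0.571, 9.17 and 0.799 CPM in mutants, against 0.601, 3.43 and 4.04 CPM in controls. Over all libraries the log2 fold change of Ms4a1 was 0.18 ± 1.02, with an edgeR adjusted p of 0.972. Without mutant 2 it was -3.42 and passed the test (edgeR adjusted p = 0.0256), so a single library decided its direction. All 8 lymphoid genes tested were negative without mutant 2, against 1 of 8 with it.

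Libraries with lymphocyte genes also differed in their make-up. The ratio of summed T cell to summed B cell CPM was 3.44, 2.76 and 2.06 in mutants, against 1.21, 0.706 and 1.1 in controls. In mutant 2 this ratio rests on 528 and 191 counts and in controls 2 and 3 on between 60 and 115 counts each, whereas in mutants 1 and 3 and control 1 at most 33 counts stand behind either sum.

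Glycam1, a mucin-like ligand of L-selectin that high endothelial venules of lymph nodes make, was counted in the same 3 libraries. It had 0, 279 and 0 counts in mutants, or 32.4 CPM in mutant 2, against 0, 17 and 41 counts in controls, or 1.88 and 3.94 CPM in controls 2 and 3. Ptprc, the CD45 phosphatase of all leukocytes, was at 5.05, 57.0 and 4.69 CPM in mutants, against 5.26, 11.6 and 14.4 CPM in controls. Cd74, the invariant chain that guards class II antigen presentation, was at 18.6, 66.4 and 7.99 CPM in mutants, against 10.4, 21.5 and 34.8 CPM in controls. All 3 genes thus had the library order of the lymphocyte genes, and Ptprc and Cd74 kept a level above 0 in libraries without Glycam1 counts. Their edgeR adjusted p were 0.592 for Glycam1, 0.687 for Ptprc and 0.857 for Cd74.

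**Figure D4:**
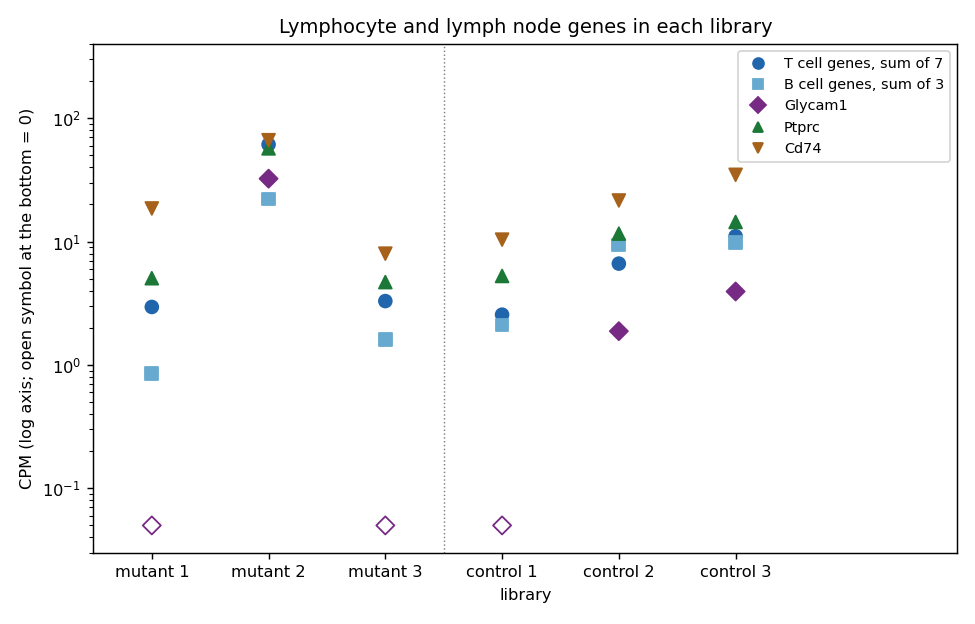
CPM on a log axis (vertical) of summed T cell genes, summed B cell genes, Glycam1, Ptprc and Cd74 in each library (horizontal), mutants left of controls; open symbols mark 0. Mutant 2 is highest throughout, controls 3 and 2 come next, with mutant 1 close to control 2 for Cd74, and Glycam1 is at 0 in mutants 1 and 3 and control 1.

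Further genes of lymphoid tissue, listed apart from the 54, were read in the same way. Of 21 further T and natural killer cell genes 20 were highest in mutant 2, and of 17 further B and plasma cell genes counted 16 were. Class II genes summed to 23.5, 135 and 12.8 CPM in mutants, against 17.7, 47.6 and 64.1 CPM in controls, and all 9 were highest in mutant 2. Their most abundant member H2-Aa, an antigen-presenting chain, was at 9.14, 58.9 and 5.69 CPM in mutants, against 6.47, 19.9 and 26.3 CPM in controls. The genes of lymph node stroma were less uniform, and 4 of the 9 listed were highest in mutant 2. Ccl19 had 1, 23 and 0 counts in mutants, against 0, 1 and 1 counts in controls. Cr2 had 1, 23 and 0 counts in mutants, against 0, 7 and 7 counts in controls. Madcam1 was at 4.00, 9.86 and 4.19 CPM in mutants, against 3.76, 6.08 and 5.86 CPM in controls. Cxcl13, the chemokine that draws B cells into follicles, was at 8.76, 10.7 and 3.69 CPM in mutants, against 3.16, 10.2 and 26.1 CPM in controls. The T cell chemokine genes Ccl21a, Ccl21b and Ccl21c, copies of one another, had 0 counts in every library. Tcf7, a transcription factor of T cells, had a log2 fold change of 1.09, and Cd37, a tetraspanin of B cells, had 0.54. Of these lists edgeR called 0 of 4 T and natural killer cell genes tested, 0 of 7 B and plasma cell genes, 0 of 6 class II genes and 0 of 4 stroma genes, and 2 stroma genes had an unadjusted p under 0.05. These were Chst4, a sulfotransferase of high endothelial venules, and Ltb, a cytokine of lymphocytes that organises lymphoid tissue, and both departed from the library order of Glycam1. Chst4 was at 0.666, 1.04 and 0.599 CPM in mutants, against 1.05, 2.10 and 2.31 CPM in controls, with every mutant below every control (edgeR adjusted p = 0.200). Ltb was at 5.05, 15.1 and 3.59 CPM in mutants, against 1.35, 2.65 and 3.08 CPM in controls, with every mutant above every control (edgeR adjusted p = 0.188).

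Genes of fat, in which lymph nodes lie, had a negative log2 fold change in 5 of the 6 tested and also varied between libraries of a group. Adipoq, the defining hormone gene of fat cells, had 0, 21 and 0 counts in mutants, against 20, 91 and 152 counts in controls. Per library size every mutant lay below every control, without passing the test (edgeR adjusted p = 0.0855). Within each group the libraries with Glycam1 counts were those with the most Adipoq counts. Lpl, the most abundant of the fat genes, lacked this order in mutants. It was at 210, 161 and 232 CPM in mutants, against 165, 184 and 200 CPM in controls (log2 fold change 0.13). The 9 fat genes listed summed to 264, 229 and 291 CPM in mutants, against 246, 317 and 353 CPM in controls. Of these 9 genes 0 were highest in mutant 2. Fabp4, the fatty acid carrier of adipocytes, was lower in mutants (log2 fold change -0.91 ± 0.15, edgeR adjusted p = 0.0125), at 39.2, 49.8 and 43.9 CPM in mutants, against 64.8, 87.7 and 96.5 CPM in controls, and was the 1 of 6 fat cell genes tested that passed, 4 of the 6 having an unadjusted p under 0.05 by edgeR. The part of attached fat or lymph node in the lymphoid values was not tested.

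Spread between libraries of a group differed by lineage. The median biological coefficient of variation that edgeR estimated was 0.721 for the lymphoid genes tested, 0.223 for the macrophage genes and 0.212 for the inflammation genes tested, against 0.126 for all genes tested. Marco with 1.06 and Glycam1 with 1.57 varied most, whereas C1qc with 0.0999, Cd68 with 0.10 and Mrc1 with 0.104 varied least among macrophage genes. Stat3, also with 0.104, was the steadiest of the inflammation genes.

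**Figure D5:**
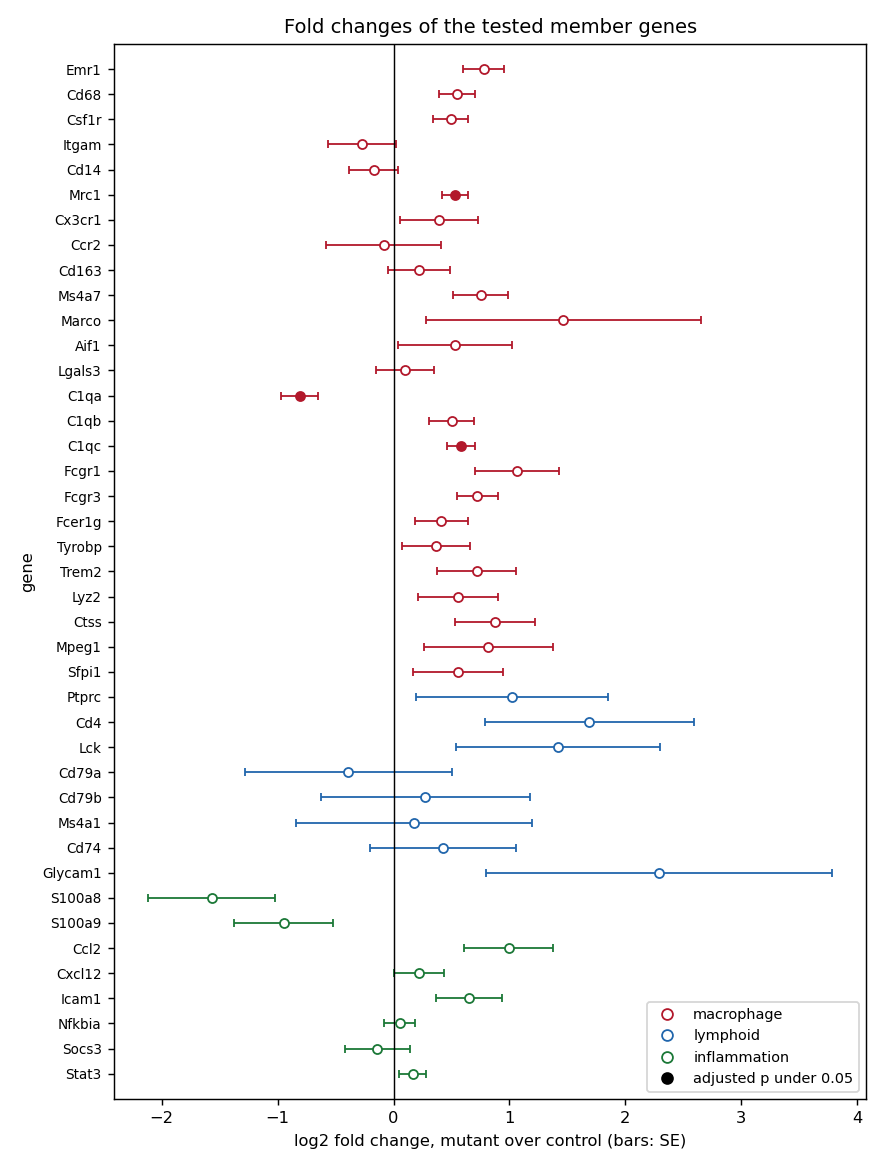
Log2 fold change of mutants over controls (horizontal axis, bars show SE) for the 41 genes tested, with filled points for an adjusted p under 0.05. The 3 filled points are Mrc1, C1qc and C1qa, and the lymphoid genes and Marco have the widest bars.

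Neutrophil and inflammatory genes did not pass the test in either direction. S100a8, a subunit of the calprotectin of neutrophils, was at 3.05, 4.99 and 2.40 CPM in mutants, against 7.37, 19.7 and 3.56 CPM in controls. S100a9, the other subunit, was at 6.0, 11.3 and 5.49 CPM in mutants, against 11.6, 24.9 and 7.02 CPM in controls. Control 2 was the highest library in both, and the groups overlapped. Their log2 fold changes were -1.57 ± 0.55 and -0.95 ± 0.43, with edgeR adjusted p of 0.242 and 0.395. Ngp, a granule gene of neutrophil precursors, was at 3.14, 2.55 and 2.80 CPM in mutants, against 5.56, 19.2 and 3.94 CPM in controls. Alas2, the heme synthesis enzyme of red cell precursors, was likewise highest in control 2, at 8.66, 20.3 and 13.2 CPM in mutants, against 24.4, 57.1 and 12.3 CPM in controls. The share of blood-forming cells in these values was not tested. Chi3l3, a lectin of alternatively activated macrophages and neutrophil precursors, had 8, 3 and 1 counts in mutants, against 12, 22 and 6 counts in controls.

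Chemokine and cytokine genes that mark acute inflammation were close to 0 in both groups. Cxcl1, which attracts neutrophils, had 4, 5 and 1 counts in mutants, against 0, 5 and 8 counts in controls. Cxcl2, its close relative, had 2, 0 and 1 counts in mutants, against 0 in each control. Cxcl5, another attractant of neutrophils, had at most 2 counts in a mutant and at most 3 in a control. The cytokines were as scarce. Il1b had 3, 3 and 0 counts in mutants, against 0, 0 and 3 counts in controls. Il6 had 1, 0 and 0 counts in mutants, against 0, 1 and 2 counts in controls, and Tnf had 1, 7 and 3 counts in mutants, against 1, 4 and 2 counts in controls. Differences in these genes were not detectable at this depth. Cxcl10, an interferon-induced chemokine, had 4, 13 and 9 counts in mutants, against 1, 6 and 8 counts in controls and was also too low to be tested.

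Of the 6 chemokines 2 could be tested. Ccl2, which draws monocytes through Ccr2, was at 1.71, 1.28 and 1.60 CPM in mutants, against 0.601, 1.10 and 0.577 CPM in controls. Its groups did not overlap, and it was the 1 inflammation gene of which this held, but it rests on at most 18 counts in a library and did not pass (log2 fold change 0.99 ± 0.38, edgeR adjusted p = 0.309). Cxcl12, a chemokine of stromal cells that holds leukocytes and vessels in place, was at 41.9, 81.1 and 46.9 CPM in mutants, against 52.9, 43.3 and 49.5 CPM in controls. Mutant 2 stood apart in Cxcl12 as in the lymphoid genes, and the other 5 libraries lay close together.

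No gene of NF-kB and Stat3 signalling passed the test. Nfkbia, the inhibitor that NF-kB itself induces, was at 19.6, 24.9 and 19.4 CPM in mutants, against 18.3, 20.2 and 22.7 CPM in controls (log2 fold change 0.05 ± 0.14, edgeR adjusted p = 0.932). Stat3, the transcription factor activated by Il6-type cytokines, was at 42.7, 37.8 and 37.8 CPM in mutants, against 31.0, 33.9 and 40.3 CPM in controls (0.17 ± 0.12, edgeR adjusted p = 0.638). Socs3, the feedback inhibitor that Stat3 induces, was at 3.71, 5.80 and 2.99 CPM in mutants, against 3.76, 5.3 and 4.52 CPM in controls. Groups overlapped in these 3 genes. Icam1, an adhesion molecule by which leukocytes leave vessels, was at 7.43, 10.4 and 5.99 CPM in mutants, against 3.01, 5.3 and 6.44 CPM in controls (0.65 ± 0.29, edgeR adjusted p = 0.379).

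Wider lists of the same pathways held no called gene. Of 29 NF-kB genes tested 0 were called, with a median log2 fold change of 0.21, and Chuk, the most abundant, which encodes a kinase of the inhibitor, had 0.03. Of 21 Jak and Stat genes 0 were called, with a median of 0.05, and the kinase gene Jak1 had 0.04. Of 12 interferon targets 0 were called, with a median of 0.29, and Irf1, an interferon-induced transcription factor, had 0.29 too. Of 8 further chemokines and 7 chemokine receptors tested 0 were called in either list, with medians of 0.05 and 0.00. At an unadjusted p under 0.05 edgeR had 3 NF-kB genes, 1 Jak and Stat gene, 3 interferon targets, 2 chemokines and 1 receptor, where 12.8% of all genes tested had one. Without mutant 2 the medians were 0.0075 for NF-kB genes, -0.05 for Jak and Stat genes and 0.21 for interferon targets. For chemokines and receptors they were -0.04 and -0.30. Positive were then 15 of 29 NF-kB genes, against 24 with mutant 2, and 8 of 21 Jak and Stat genes, against 15. Pf4, a chemokine of platelets and some macrophages, was at 10.4, 10.6 and 11.2 CPM in mutants, against 7.07, 9.06 and 8.46 CPM in controls, without overlap (edgeR adjusted p = 0.313). Cxcr7, a scavenging receptor for Cxcl12, was at 12.5, 12.4 and 12.7 CPM in mutants, against 17.6, 14.8 and 20.8 CPM in controls, also without overlap (edgeR adjusted p = 0.145). The receptor values of the 3 mutants were thus nearly equal and all below those of controls.

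Genes listed as further macrophage genes were mostly positive, without a call. Of 26 further macrophage genes tested 0 were called, 25 had a positive log2 fold change and the median was 0.48, with 3 at an unadjusted p under 0.05 by edgeR, against the same 12.8% of all genes. Without mutant 2 the positive ones were 16 of the 26 and the median was 0.19, and 20 of the 31 genes listed were highest in mutant 2. F13a1, a coagulation factor subunit of tissue macrophages and the most abundant of them, was at 57.5, 46.5 and 65.5 CPM in mutants, against 47.5, 46.8 and 50.1 CPM in controls. Cd52, also in this list, had 4, 204 and 9 counts in mutants, against 19, 29 and 60 counts in controls. Coro1a had 96, 388 and 57 counts in mutants, against 58, 148 and 149 counts in controls. Both were highest in mutant 2, with controls 2 and 3 next, like the summed T and B cell genes. The share of lymphocytes in the values of this list was not tested. Of 14 further complement genes 0 were called and 4 had an unadjusted p under 0.05, with a median of 0.20. C3, the central complement protein, was at 300.4, 270.5 and 179 CPM in mutants, against 131, 222 and 431 CPM in controls. Of 5 further neutrophil genes tested 0 were called, with a median of -1.64 and 1 positive. Without control 2 the median was -0.54 and 2 were positive. Of the 15 neutrophil genes counted 7 were highest in mutant 2. Among them Retnlg, too low to be tested, had 4, 32 and 0 counts in mutants, against 5, 11 and 10 counts in controls. Of 3 dendritic cell genes and 5 mast cell and eosinophil genes 0 were called either. Zbtb46, a transcription factor of dendritic cells and the most abundant gene of its list, had a log2 fold change of 0.06. Of the 10 dendritic cell genes listed, however, 8 were highest in mutant 2. Irf8 had 16, 96 and 16 counts in mutants, against 9, 38 and 44 counts in controls. Flt3, too low to be tested, had 1, 22 and 0 counts in mutants, against 0, 1 and 5 counts in controls. The 5 mast cell and eosinophil genes had a median of 0.30, with 3 positive and 2 negative. Kit, the receptor on which mast cells depend, had -0.62 and Prg2 had -1.97. The mast cell genes Cpa3, Cma1 and Tpsb2 went the other way, with 0.30, 0.40 and 0.66. Without mutant 2 all 5 were negative, with a median of -0.39.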

How the data were processed

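The authors deposited whole-number read counts per gene symbol for each of 6 libraries, per the file headers. The tools named, per the submitters' processing notes, are STAR, cutadapt 1.13, DESeq2 and HTSeq 0.6.1p1, with the build mm10 and no roles. The gene annotation and strand setting they used are not stated. From these counts edgeR 4.0.16 (R 4.3.3) fitted mutant against control by quasi-likelihood, with TMM scaling, filterByExpr defaults and no covariate, over 13017 genes, and adjusted p by Benjamini-Hochberg over all of them. SE is the absolute log2 fold change over the square root of F. The 54 genes, their roles and the further lists were chosen with earlier results of these data known. Values per library were planned for called genes, for a set of markers and for the 2 most abundant genes of each role, and for called or else the most abundant genes of further lists. Other genes set out per library, such as Cd68, Chst4, Ltb and Adipoq, were chosen after their values were seen. Within groups libraries differed by a chi-square per degree of freedom of 5.83 to 20.5, so none was merged. The test was tried on simulated data. Coordinates and lengths came from GENCODE M21 on GRCm38. Alternatives were other scalings and filters, robust dispersion, DESeq2 1.42.0, a replicate block and leaving out each library.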

Additional observations from a re-analysis of the deposited data

How the results depend on the processing

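Mrc1, C1qc and C1qa were called with RLE size factors, with at least 10 counts in 3 libraries, with no filter, with a robust dispersion and with DESeq2. With library totals alone the median of all genes moved to 0.17, 190 genes were higher and 130 lower in all, and 4 of the 54 were higher (all macrophage genes) and 0 lower, C1qa losing its call. Leaving out 1 library gave 27 to 99 higher and 98 to 202 lower genes in all, 0 to 1 higher and 0 to 2 lower among the 54, 0 to 1 higher and 0 to 1 lower among macrophage genes, and 0 to 1 lower among lymphoid genes (Ms4a1, at -3.42 without mutant 2 and up to 0.76 without another library). Medians then ranged from 0.22 to 0.65 for macrophage, -1.58 to 1.19 for lymphoid and -0.09 to 0.19 for inflammation genes. The replicate numbers did not pair the samples, with correlations of deviations of 0.0798, 0.0289 and -0.0708 for numbers 1 to 3, and 1 of 3 mutants correlated best with the control of its number. With the replicate block 0 of the 54, and so 0 macrophage genes, were higher, Mrc1 (edgeR adjusted p = 0.101) and C1qc (0.0799) losing their calls, and 2 were lower, namely C1qa and, as the 1 inflammation gene, S100a8. Over these 13 alternatives the log2 fold change of Prox1 stayed between 1.56 and 1.83. Genes under about 1 CPM are limited by counting.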
